A study of Bos taurus with 11 samples.

Results

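The expression of 3 genes of steroid metabolism, CYP11A1 (ENSBTAG00000006934), UGT2A3 (ENSBTAG00000004040) and SULT1E1 (ENSBTAG00000011952), was examined in bovine liver. They were chosen by identifier, as 1 gene of steroid synthesis and 2 of steroid conjugation, from the 21996 genes counted. The choice was made with earlier results known, and all 3 are in the study's own table of genes that differed between these groups. How their changes rank in size among all genes is therefore no independent finding. Liver RNA came from multiparous Holstein-Friesian cows in early lactation, 5 with a mild negative energy balance (MNEB) and 6 with a severe one (SNEB), sampled at about day 14 after calving. Energy balance had been set by management, with a single milking a day and silage without limit beside concentrate for the MNEB group, and 3 milkings a day on a smaller ration of silage and concentrate for the SNEB group. Cows had been selected for the extremes of energy balance, and feeding and milking differed together between the groups, so their parts cannot be told apart. Poly(A) RNA of each liver was sequenced as single reads on 1 to 3 lanes, 19 lanes of 3 flow cells in all, and between 1774011 and 6852142 reads per cow were counted on genes. Levels are given as CPM, counts scaled to the total of the library and by TMM, with the SD over cows. Pieces of whole liver were used, so fewer cells of a type and less RNA per cell cannot be told apart.

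CYP11A1 encodes the mitochondrial side-chain cleavage enzyme, which turns cholesterol into pregnenolone and so opens the synthesis of all steroid hormones. It is best known from the adrenal cortex, the gonads and the placenta. The liver is known mainly for the opposite end of the pathway, where UDP-glucuronosyltransferases such as UGT2A3 join glucuronic acid to small lipophilic compounds, and the estrogen sulfotransferase SULT1E1 joins a sulfate group to estrogens, which makes them water soluble and unable to bind their receptor.

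CYP11A1, the gene of side-chain cleavage, was higher in every SNEB cow than in any MNEB cow. Its level was 153 CPM in MNEB1, 164 in MNEB2, 72.7 in MNEB3, 117 in MNEB4 and 154 in MNEB5, and in the 6 SNEB cows it ran from 271 to 485 CPM with a median of 337. MNEB3 was the lowest cow and SNEB3 the highest, and the other 4 MNEB cows lay between 117 and 164 CPM. The mean rose 2.61-fold, from 132 ± 37.8 (SD, n = 5) to 345 ± 79.6 CPM (SD, n = 6), a log2 fold change of 1.38 (standard error 0.20, adjusted p = 0.00953, quasi-likelihood test of edgeR after Benjamini-Hochberg adjustment). Of the 3 genes, CYP11A1 alone was called at an adjusted p under 0.1, as were 0.544% of the 13960 genes tested, 0.330% as higher and 0.215% as lower in SNEB. It was also the only gene of the 3 whose groups did not overlap, which held for 1.30% of the genes tested, 0.766% with SNEB above and 0.537% with SNEB below. The change was larger in size than that of 98.1% of the genes tested, whose median size was 0.16 on the log2 scale. The biological coefficient of variation between cows of a group was 0.236, somewhat above the trend of 0.190 for genes of its abundance.

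**Figure D1:**
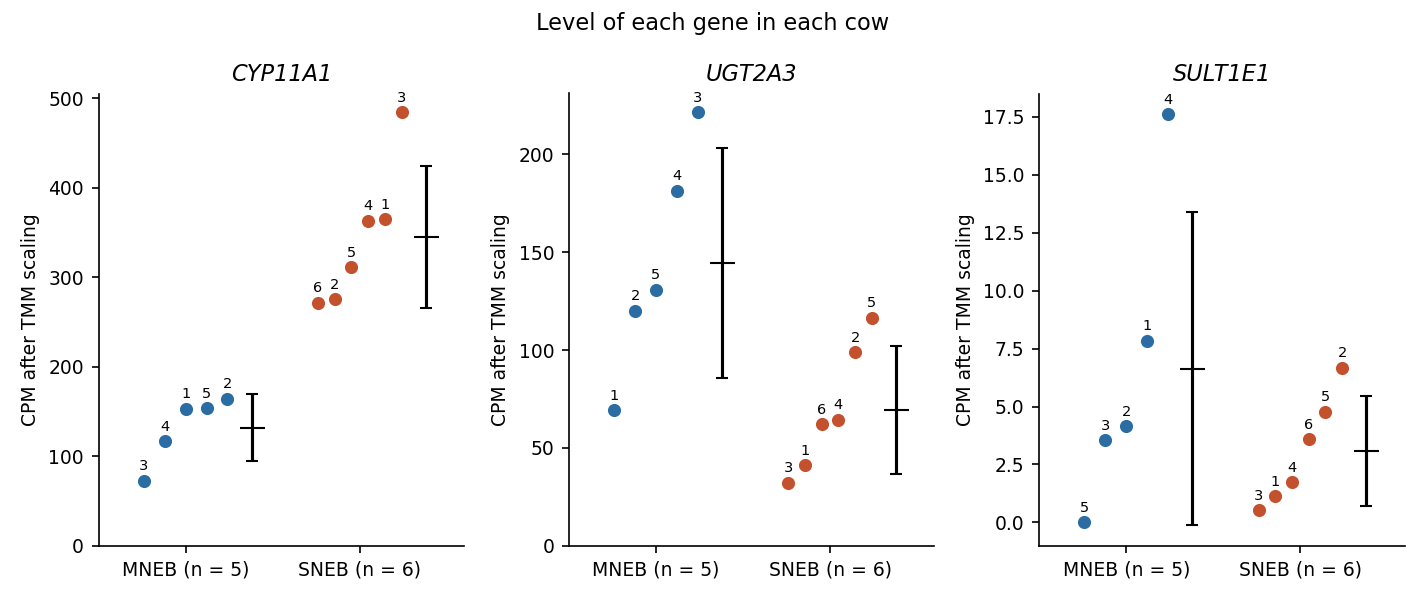
CPM after TMM scaling (vertical axes, each gene on its own scale) of CYP11A1, UGT2A3 and SULT1E1 in each cow, in MNEB (blue, n = 5) and SNEB (orange, n = 6). Points carry the cow's number, and bars show the group mean and SD. SNEB cows lie at 271 to 485 CPM for CYP11A1, above all MNEB cows, while the groups overlap for UGT2A3 and SULT1E1.

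UGT2A3, a gene of glucuronidation, had 69.1 CPM in MNEB1, 120 in MNEB2, 222 in MNEB3, 181 in MNEB4 and 131 in MNEB5, and in SNEB cows 32.2 to 117 CPM with a median of 63.3. The groups overlapped, since MNEB1 lay below SNEB2 (98.9 CPM) and SNEB5 (117 CPM), while the other 4 MNEB cows were above all 6 SNEB cows. The means were 145 ± 58.7 (SD, n = 5) and 69.2 ± 32.7 CPM (SD, n = 6). The log2 fold change of -1.05 (standard error 0.33) did not pass the quasi-likelihood test of edgeR after Benjamini-Hochberg adjustment (adjusted p = 0.290), and UGT2A3 ranked 312 by p-value. With DESeq2, which called 1.96% of the genes, its adjusted p was 0.0950, the lowest of the alternatives, which reached 0.923. By size, the estimate exceeded 96.5% of the genes tested, but cows of the same group differed widely, with a biological coefficient of variation of 0.380 against a trend of 0.210 for genes of its abundance. In the gene names of RefSeq, UGT2A3 is a synonym of bovine UGT2A1. Reads with more than 1 alignment had been dropped, so sequence that the gene shares with near copies of its family was not counted.

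SULT1E1, the estrogen sulfotransferase gene, was counted with 32 reads in MNEB1, 8 in MNEB2, 6 in MNEB3, 59 in MNEB4 and 0 in MNEB5, and with 1 to 20 reads in SNEB cows. These reads correspond to 7.85, 4.16, 3.55, 17.6 and 0 CPM in the MNEB cows and to 0.536 to 6.68 CPM in SNEB cows, with a median of 2.66. The highest level and the only count of 0 were thus both found in MNEB cows, and the groups overlapped. In MNEB5, 0 reads of 3951977 allowed a level of up to 0.759 CPM, where 3 reads are taken as the limit that a count of 0 allows. Exact Poisson intervals were 44.9 to 76.1 reads for MNEB4 and 0.0253 to 5.57 for SNEB3, the cow with 1 read. All intervals and limits given here cover counting error only. The difference between the groups, a log2 fold change of -1.16 (standard error 0.73), did not pass the quasi-likelihood test of edgeR after Benjamini-Hochberg adjustment (adjusted p = 0.740). It was -0.37 without MNEB4 (adjusted p = 0.965 in the same test) and -1.51 without MNEB5 (adjusted p = 0.531), and without the cows of flow cell A it was -0.21 (adjusted p = 0.999). Over all alternatives and left-out cows the adjusted p lay between 0.531 and 0.999. The biological coefficient of variation was 0.841, against a trend of 0.360 for genes of this abundance.

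To set side-chain cleavage against conjugation within each liver, the reads of CYP11A1 were divided by those of UGT2A3 in the same cow, with 0.5 read added to each count. Such a ratio needs no scaling to library totals, but it is not corrected for gene length and is not read as a ratio of transcripts. It also differed between lanes of the same cow, at 1.74 on flow cell B and 3.04 on C in MNEB1. Differences between cows that were run on different flow cells therefore include differences between lanes. With lanes summed, the ratio was 2.21 in MNEB1, 1.37 in MNEB2, 0.329 in MNEB3, 0.643 in MNEB4 and 1.17 in MNEB5. In SNEB cows it was 8.86 in SNEB1, 2.78 in SNEB2, 14.95 in SNEB3, 5.64 in SNEB4, 2.67 in SNEB5 and 4.36 in SNEB6. CYP11A1 had more reads than UGT2A3 in 3 of 5 MNEB cows and in 6 of 6 SNEB cows, and every SNEB ratio was above every MNEB ratio. On the log2 scale the means were -0.08 ± 1.06 (SD, n = 5) and 2.43 ± 0.97 (SD, n = 6), a difference of 2.51, or 5.69-fold. The difference exceeded the SD of either group, and with the lanes of flow cell C alone it was 1.36. No test was made, because the genes were chosen with results known.

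**Figure D2:**
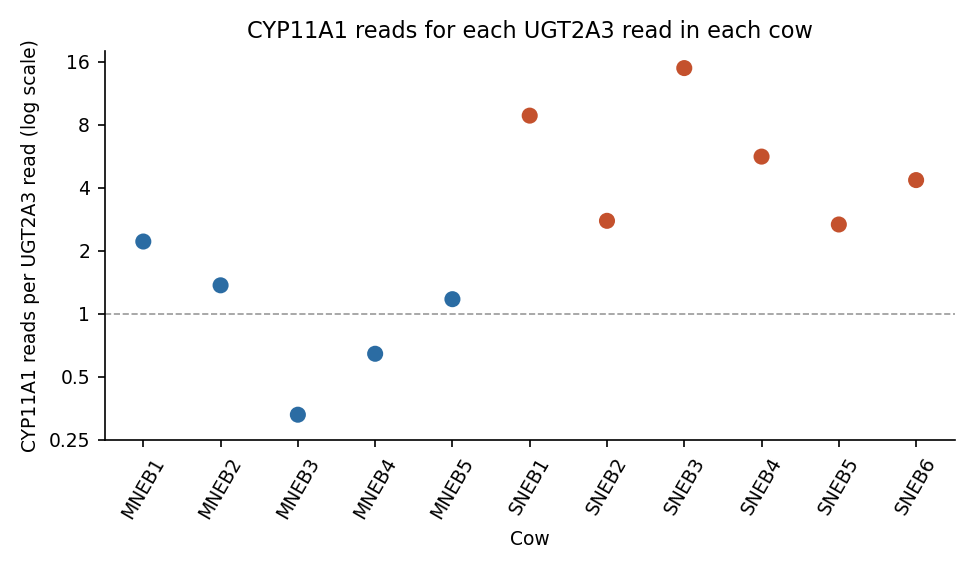
Reads of CYP11A1 for each read of UGT2A3 (vertical axis, log scale, 0.5 read added to each count) in MNEB (blue) and SNEB cows (orange), with a dashed line at equal reads. Ratios run from 0.329 to 2.21 in MNEB and from 2.67 to 14.95 in SNEB cows.

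Within the MNEB group, MNEB3 had the lowest CYP11A1 level and the highest UGT2A3 level, and MNEB1 had the lowest UGT2A3 level with a CYP11A1 level in the middle of the group. Within the SNEB group, SNEB3 and SNEB1 had the highest CYP11A1 levels, 485 and 365 CPM, and the lowest UGT2A3 levels, 32.2 and 41.1 CPM. SNEB5, the highest SNEB cow in UGT2A3 at 117 CPM, had 312 CPM of CYP11A1. The order was not reversed throughout, since SNEB6, the lowest SNEB cow in CYP11A1 at 271 CPM, had 62.2 CPM of UGT2A3. SNEB4 had 363 CPM of CYP11A1 and 64.3 of UGT2A3, and SNEB2 had 275 and 98.9 CPM. The lowest and the highest ratio of all cows therefore came from MNEB3 and SNEB3, which were each run on a single lane of flow cell B.

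Set against SULT1E1, CYP11A1 had 19.2, 37.2, 19 and 6.58 reads per SULT1E1 read in MNEB1 to MNEB4, and between 40.0 and 603 in SNEB cows. These 4 MNEB cows lay below all SNEB cows, but MNEB5, with 608 reads of CYP11A1 and 0 of SULT1E1, had a ratio of at least 203 at the limit of 3 reads, above the lowest SNEB cows, so that the groups overlapped. Between the conjugation genes, UGT2A3 had 8.69, 27.2, 57.8 and 10.2 reads per SULT1E1 read in MNEB1 to MNEB4, at least 173 in MNEB5, and 14.4 to 40.3 in SNEB cows. SNEB cows thus fell within the MNEB range, and the ratio of UGT2A3 to SULT1E1 did not separate the groups.

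Because several libraries had been run on more than 1 lane, the same RNA could be compared between lanes. The 5 cows run on both flow cells B and C, 2 MNEB and 3 SNEB, gave a comparison of B with C within each cow, which was added after the data were examined. UGT2A3 was higher on flow cell B in 5 of 5 cows, by 1.36-fold to 1.77-fold, and the 95% interval of each ratio lay above 1. In CPM of the reads of a lane, it was 89.9 on B and 50.9 on C in MNEB1, which was the widest of these ratios. The log2 ratio of B to C was 0.58 (1.49-fold, standard error 0.07, adjusted p = 6.60e-13, quasi-likelihood test of edgeR with a term for each cow, after Benjamini-Hochberg adjustment). Such differences were common, since 56.3% of the 13228 genes tested differed between B and C and 29.5% were higher on B, but the size for UGT2A3 exceeded that of 85.4% of the genes. MNEB3, the cow with the highest UGT2A3 level, and SNEB3, the cow with the lowest, were both run on B only, and MNEB2 and SNEB2 on C only. SULT1E1 was higher on B in the 4 of 5 cows in which it was counted, with a log2 ratio of 0.95 (standard error 0.36, adjusted p = 0.0204 in the same edgeR test). None of the 4 intervals of the lane ratios lay above 1. Without MNEB1, which held the most reads of these cows, the log2 ratio was 0.97 and the call was lost (edgeR adjusted p = 0.102). CYP11A1 was nearly level, higher on B in 4 of 5 cows with ratios of 0.973 to 1.10, none of whose intervals lay above 1. Its log2 ratio of 0.08 (standard error 0.04, edgeR adjusted p = 0.0899) was called, and the call was lost in 4 of 5 fits that left out a cow and with other scalings.

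**Figure D3:**
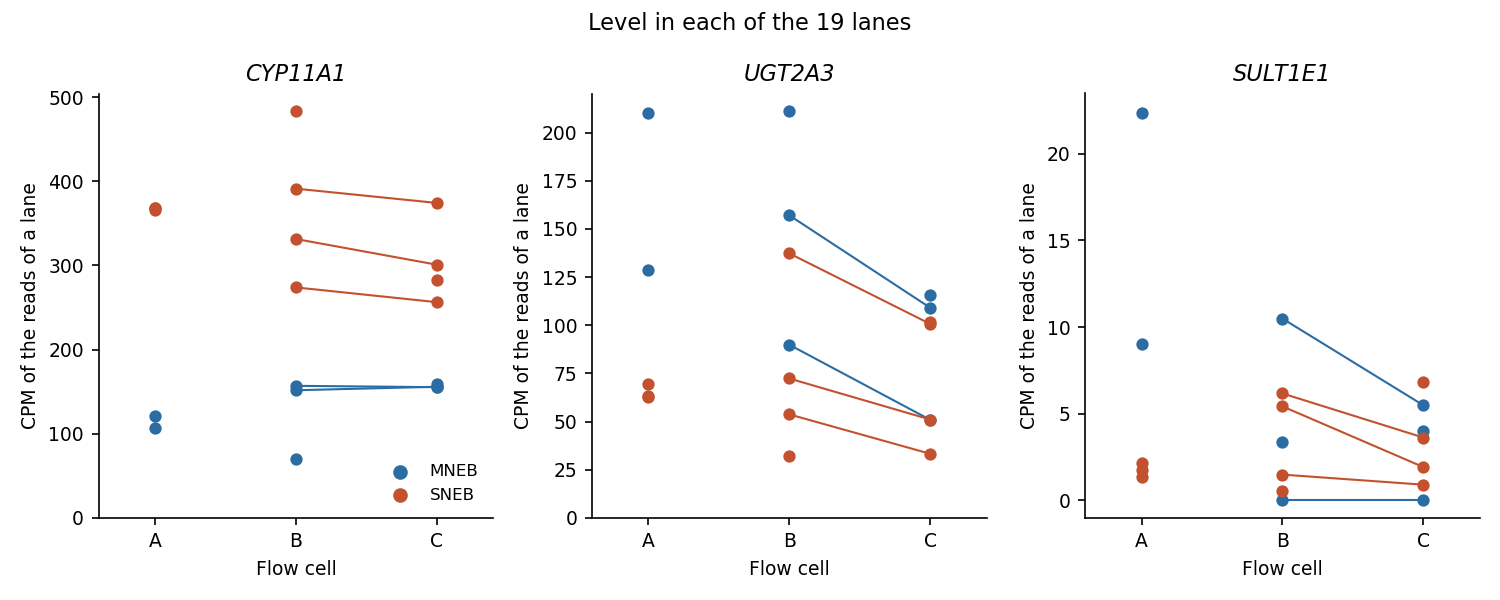
CPM of the reads of a lane (vertical axes, each gene on its own scale) for the 19 lanes by flow cell (horizontal axis), MNEB in blue and SNEB in orange. Lines join the lanes of the same cow on flow cells B and C. All 5 lines fall from B to C for UGT2A3, by 1.36-fold to 1.77-fold, and those of CYP11A1 are nearly flat.

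Lanes of flow cell A held 1 cow of each group. In MNEB4, the cow with the highest SULT1E1 level, the lane with 2147404 reads had 210.0 CPM of UGT2A3 and 22.4 CPM of SULT1E1, whereas the lane with 1221833 reads had 128 and 9.0 CPM. Between these lanes of the same library, UGT2A3 differed 1.63-fold (95% interval 1.36 to 1.97) and SULT1E1 2.48-fold (1.27 to 5.30), while CYP11A1 differed 1.13-fold (0.912 to 1.40). The library had been loaded at a different concentration on each, so that concentration and lane cannot be told apart. SNEB4 had also been loaded at a different concentration on each of its 3 lanes, over a wider span than MNEB4, and the ratios between these lanes were 0.901 to 1.09 for UGT2A3 0.993 to 0.999 for CYP11A1 and 0.801 to 1.62 for SULT1E1, and the intervals of all of them included 1.

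The groups were then compared with the flow cells taken into account. With the set of flow cells of a cow as a term, the log2 fold change over all cows was 1.38 for CYP11A1, -0.997 for UGT2A3 and -0.994 for SULT1E1 (edgeR adjusted p = 0.0363, 0.402 and 0.734). In cows run on the same flow cells, UGT2A3 was 181 CPM in MNEB4 and 64.3 in SNEB4 on A, 222 in MNEB3 and 32.2 in SNEB3 on B, and 120 in MNEB2 and 98.9 in SNEB2 on C. Each of these SNEB cows was thus below the MNEB cow of its flow cell, while among the cows run on both B and C the groups overlapped, at 69.1 and 131 CPM in MNEB1 and MNEB5 and 41.1 to 117 CPM in SNEB cows. On flow cell C, CYP11A1 had 155 to 158 CPM in 3 MNEB lanes and 256 to 374 CPM in 4 SNEB lanes, which is 0.92 on the log2 scale (standard error 0.13, edgeR adjusted p = 0.0465), where 0.159% of genes were called. On flow cell B it had 69.3 to 157 CPM in 3 MNEB lanes and 274 to 483 CPM in 4 SNEB lanes, which is 1.54 on the log2 scale (standard error 0.27, edgeR adjusted p = 0.0795), where 0.208% were called. These comparisons share 5 of the 7 cows of each, so they are not independent of each other. On flow cell A, CYP11A1 had 107 and 121 CPM in the lanes of MNEB4 and 366 to 369 CPM in those of SNEB4. UGT2A3 gave a log2 fold change of -1.08 on B (standard error 0.43, edgeR adjusted p = 0.656) and -0.40 on C (standard error 0.39, edgeR adjusted p = 0.923), and its groups overlapped on both. SULT1E1 gave -0.47 on B (standard error 0.91, edgeR adjusted p = 0.978) and 0.07 on C (standard error 0.84, edgeR adjusted p = 0.999), so its direction was not kept. Whether the estimates on B and C differ was not tested. The ratio of CYP11A1 to UGT2A3 reads was 0.329 to 1.74 in MNEB and 2.41 to 14.95 in SNEB lanes of B, and 0.577 to 0.835 and 5.29 to 5.84 in those of A. On C, MNEB lanes reached 3.04 and SNEB lanes began at 2.78, so the separation seen per cow was not complete there.

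**Figure D4:**
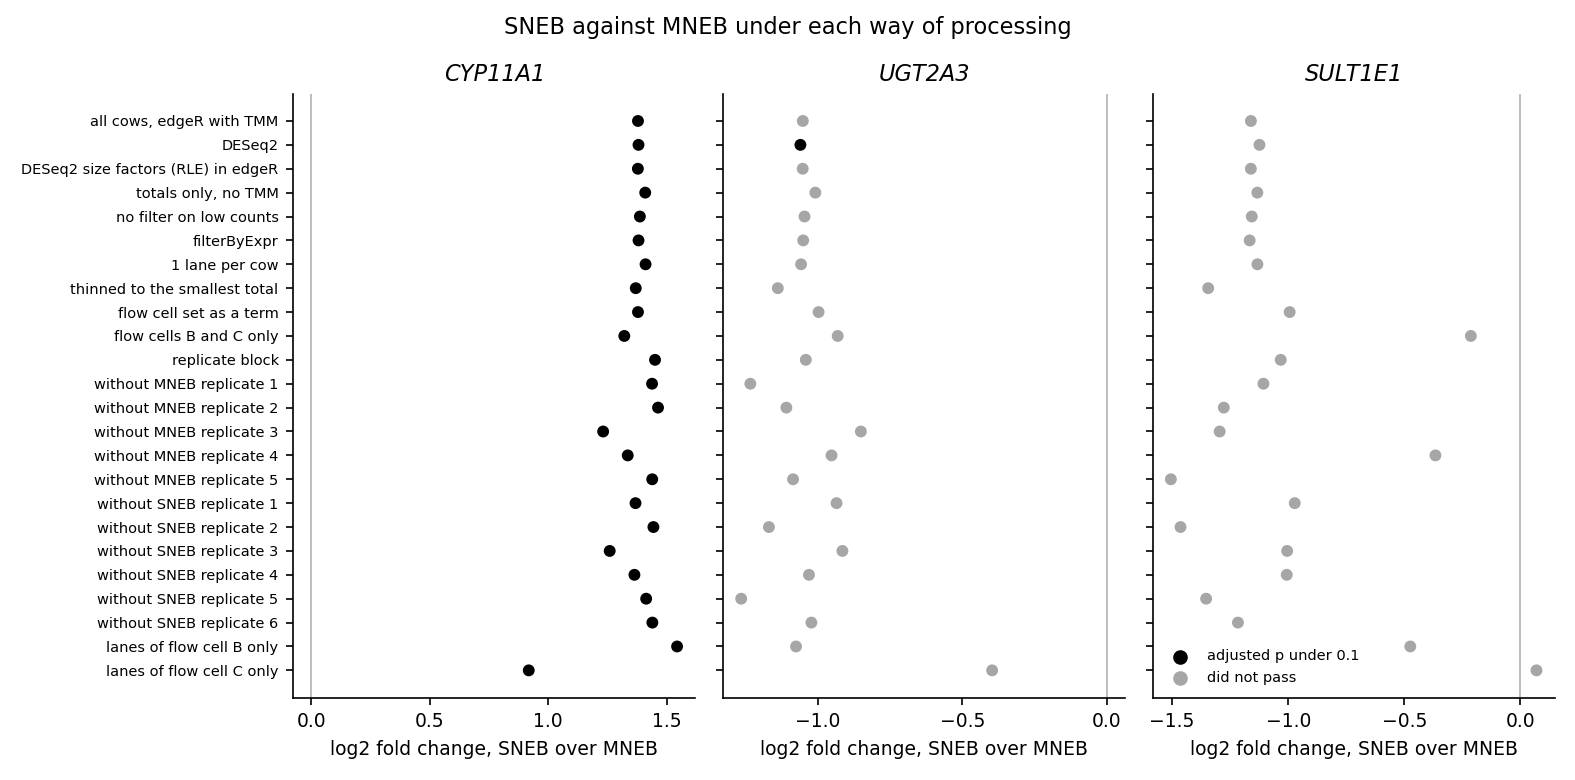
Log2 fold change of SNEB over MNEB (horizontal axes) for each gene under each way of processing and with each cow left out (rows), black where the adjusted p was under 0.1. CYP11A1 stays between 0.92 and 1.54 and is black throughout, UGT2A3 lies between -1.26 and -0.40 and is black with DESeq2 only, and SULT1E1 reaches 0.07 with the lanes of flow cell C.

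Genes of steroid metabolism and transport, of cholesterol supply, and of nuclear receptors and coregulators were taken from 7 lists. Of the 143 symbols considered only 10 could be matched to an identifier, CYP11A1, UGT2A3 and SULT1E1 included. The list of nuclear receptors and coregulators gave 4 of them, RXRG, AHR, GATA4 and PPARGC1A. The names came from the study's own table of genes that differed between these groups, so the matched genes are no independent sample of the pathway, and genes such as STAR, CYP17A1 and SULT2A1 were not analysed here. Of the 10 genes, 3 were called higher in SNEB (CYP11A1, SULT1C2 and RXRG) and 3 lower (HSD17B2, AHR and SERPINA6), with a median log2 fold change of -0.14 against -0.01 over all genes tested. Without CYP11A1, UGT2A3 and SULT1E1, 5 of the remaining 7 genes were called. Of all 383 symbols of the table that were tested, 63 were called. The lists of steroid synthesis and glucuronidation were represented by 1 gene each, CYP11A1 and UGT2A3.

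Among sulfation genes, SULT1C2, a cytosolic sulfotransferase of another subfamily than SULT1E1, rose in SNEB cows. Its level was 7.32 ± 1.33 CPM in the MNEB group (SD, n = 5) and 21.3 ± 8.41 CPM in the SNEB group (SD, n = 6), and all 6 SNEB cows lay above all 5 MNEB cows. Its log2 fold change was 1.51 (standard error 0.28, edgeR adjusted p = 0.0391). Without MNEB5 the estimate was 1.46 and the edgeR adjusted p 0.125, and without flow cell A they were 1.64 and 0.113. SULT1C2 was called under 9 of 12 alternatives, with an adjusted p of up to 0.407 and estimates between 1.34 and 1.64. SULT1C3, which was in no list and was chosen after its values were seen, had 5.11 ± 2.03 and 13.5 ± 5.38 CPM. Its groups did not overlap but nearly met, at 7.46 CPM in MNEB4 (25 reads) and 7.72 CPM in SNEB1 (34 reads). The log2 fold change of 1.38 did not pass (edgeR adjusted p = 0.158). With DESeq2 the adjusted p was 0.0196, in a range of 0.0196 to 0.598 over the alternatives. Over all cows the estimates for SULT1E1 and for these sulfotransferases therefore had opposite signs, while on flow cell C that of SULT1E1 was 0.07, and the difference between them was not tested.

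HSD17B2, which oxidizes estradiol and testosterone to their less active keto forms, fell from 57.1 ± 8.38 (SD, n = 5) to 30.9 ± 7.62 CPM (SD, n = 6), without overlap. The log2 fold change was -0.88 (standard error 0.18, edgeR adjusted p = 0.0617). Its estimate lay between -0.96 and -0.79 with a cow left out and between -0.91 and -0.73 under the alternatives. The call was kept in 6 of 11 fits that left out a cow, with an edgeR adjusted p of 0.107 to 0.153 without MNEB2, MNEB4, MNEB5, SNEB4 or SNEB6. Under the alternatives it was called in 7 of 12, with an adjusted p of 0.101 without TMM, 0.139 after thinning, 0.269 without flow cell A and up to 0.464 within a flow cell. SERPINA6, the plasma carrier of glucocorticoids and progesterone, had 153 to 240 CPM in MNEB and 11.8 to 55.5 CPM in SNEB cows. The log2 fold change of -2.50 (standard error 0.30, edgeR adjusted p = 0.00538) was called with every cow left out in turn and under all 12 alternatives.

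Among nuclear receptors and their partners, RXRG, a partner of many nuclear receptors, had 24.8 to 78.5 CPM in MNEB and 96.9 to 176 CPM in SNEB cows, with a log2 fold change of 1.49 (standard error 0.27, edgeR adjusted p = 0.0326). Without MNEB5 the edgeR adjusted p was 0.113, and with the lanes of flow cell C it was 0.139, with log2 fold changes of 1.43 and 1.48. With the lanes of flow cell B it reached 2.14 (edgeR adjusted p = 0.00633). AHR, a ligand-activated regulator of drug and steroid metabolism genes, had 129 ± 26.0 and 69.9 ± 18.7 CPM, overlapping through SNEB3, and its log2 fold change was -0.89 (standard error 0.18, edgeR adjusted p = 0.0623). With a cow left out its estimate lay between -1.04 and -0.83. The call was kept in 3 of these 11 fits, where the edgeR adjusted p ran from 0.00996 without SNEB3 to 0.169 without MNEB5, and was over 0.1 also without MNEB2, MNEB3, MNEB4, SNEB1, SNEB2, SNEB4 or SNEB6. AHR was called under 9 of 12 alternatives, with estimates between -0.95 and -0.76, and not without flow cell A (edgeR adjusted p = 0.269) or with the lanes of B (0.488) or C (0.159). GATA4 and PPARGC1A had log2 fold changes of 0.71 and 0.60 and did not pass (edgeR adjusted p = 0.343 and 0.636).

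**Figure D5:**
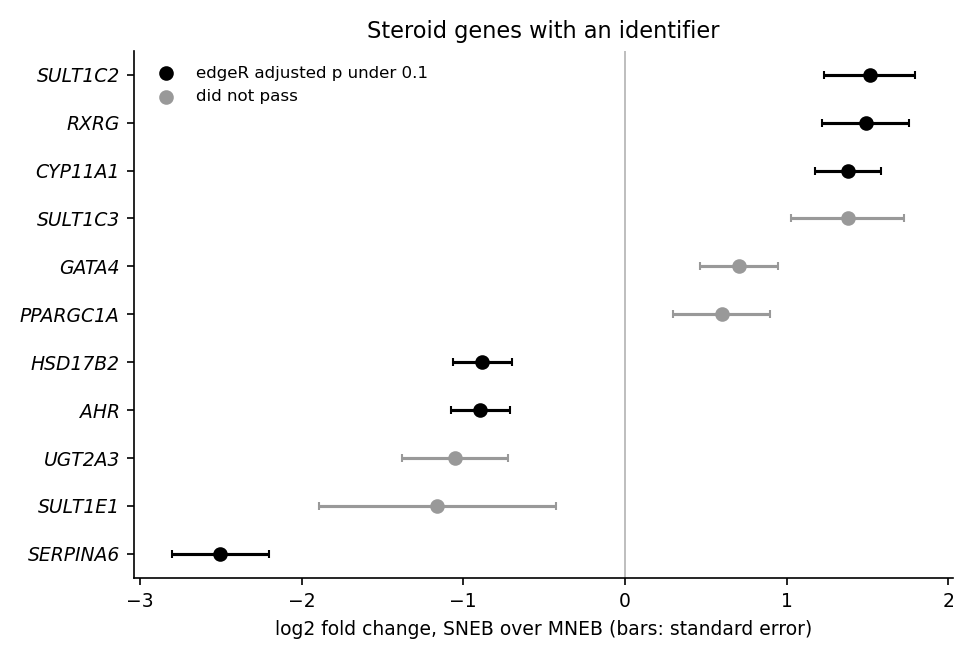
Log2 fold change of SNEB over MNEB (horizontal axis, bars show the standard error) for the 10 listed genes with an identifier and SULT1C3. Black points had an edgeR adjusted p under 0.1, and the values run from -2.50 for SERPINA6 to 1.51 for SULT1C2.

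Genes with a similar pattern over the cows were looked for among 11846 genes with a mean of at least 10 reads per cow, and the 3 named genes with the highest Pearson's r of log2 CPM are given for each gene, as a description. Only genes of the study's table of differing genes carried a symbol, so genes without a name could be more alike, and named genes tend to share a difference between the groups. For CYP11A1 these were FNDC4 (r = 0.912), ISM1 (0.911) and TMEM120A (0.906) over the 11 cows, all of them called higher in SNEB by edgeR. After the mean of the group was taken off, which leaves the differences between cows of a group, they were NUMB, CES4A and GDE1, with r from 0.672 to 0.751. They ranked 56, 73 and 155 of all 11846 genes, of which the highest had 0.965.

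Among named genes, those most like UGT2A3 were SLC22A10, of the organic anion transporter family (r = 0.848, rank 14 of all 11846 genes, of which the highest had 0.923), the fatty acid desaturase FADS2 (0.807) and KIAA2018 (0.781). After the group means were taken off, SLC22A10 again had the highest r of the named genes (0.778, rank 30, where the highest of all genes was 0.903), followed by SLC25A48 and GLT25D2 (0.698 and 0.696). The levels of SLC22A10 were low, with means of 8.16 CPM in MNEB and 2.02 CPM in SNEB cows.

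The named gene most like SULT1E1 was SEMA4B, a semaphorin, with an r of 0.871 (rank 2 of all genes), followed at a distance by ABCG8, a subunit of the sterol exporter of the bile canaliculus (0.627), and LGR5 (0.617). After the group means were taken off, SEMA4B had an r of 0.972 with SULT1E1, the highest of all 11846 genes, followed by ARHGEF10L (0.777) and ABCG8 (0.742). With each cow left out in turn, an alternative added after the data were examined, r with SEMA4B ran from 0.819 without MNEB4 to 0.921 without MNEB5, and after the group means were taken off from 0.949 without MNEB5 to 0.979. SEMA4B was picked for its r on these same cows, and SULT1E1 was counted with at most 20 reads in 9 of the 11. SEMA4B itself had mean levels of 90.4 and 55.9 CPM in MNEB and SNEB cows and did not pass (log2 fold change -0.69, edgeR adjusted p = 0.323).

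By RefSeq's gene order, UGT2A3 (as UGT2A1) and SULT1E1 are neighbours on the same chromosome with 2 protein-coding genes between them, the sulfotransferase genes SULT1B1 and SULT1D1, and CYP11A1 is on another. The label of the tissue could be checked only in part. Of the 14 hepatocyte markers listed, 0 had an identifier, and FETUB, a liver-made plasma protein gene chosen after its values were seen, was counted in every cow, with 232 to 356 CPM in MNEB and 101 to 333 CPM in SNEB cows. Of the 12 markers of adrenal cortex, a tissue rich in CYP11A1, 0 had an identifier, so adrenal tissue in a sample was not tested. The same held for adrenal medulla (0 of 7), ovarian follicle and corpus luteum (0 of 8), cholangiocytes (0 of 7), intestinal epithelium (0 of 7), lymphocytes (0 of 8), erythroid cells (0 of 6), endothelial cells (0 of 7), stellate cells and fibroblasts (0 of 7) and pancreas (0 of 7). Of 7 markers of Kupffer cells and macrophages 1 had an identifier, MARCO, at 139 ± 63.0 CPM in the MNEB group (SD, n = 5) and 90.4 ± 51.5 CPM in the SNEB group (SD, n = 6), and it did not pass (edgeR adjusted p = 0.712).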

How the data were processed

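The deposited values are raw counts of reads per Ensembl gene and lane. The authors used Bowtie for alignment to BCM4 and HTSeq for counting. They left out reads that aligned more than once and kept 1 read per position, which limits how high a count can rise. The strand setting is not given in the sources used here. Lanes were summed per cow, and flow cells were taken from the study's lane table. A gene needed 5 reads in at least 1 cow to enter the test with edgeR 4.0.16 in R 4.3.3 (TMM, quasi-likelihood test, Benjamini-Hochberg adjustment, call at an adjusted p under 0.1). The standard error is the log2 fold change divided by the root of F. DESeq2 1.42.0, other scalings and filters, 1 lane per cow, thinning, flow cell terms, a replicate block and leaving out each cow were alternatives. The fits were tested on simulated counts. Symbols came from the study's table of differing genes (383 identifiers with a symbol), gene order and synonyms from RefSeq (ARS-UCD2.0). Members and lists were chosen with earlier results of these data known. Named were the 3 genes, in each list the called genes, the 3 with the smallest p and the 3 with the highest CPM, and for each gene the 3 most alike, apart from items that are not reported here. Intervals of lane ratios are exact at 95%. Plots were drawn with matplotlib 3.10.9.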

Additional observations from a re-analysis of the deposited data

Results flagged for a closer look

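In 28 groups of values, 2 had a cow far from the others of its group, where chance gives about 1 in 20 groups. PPARGC1A, a coactivator of nuclear receptors, had 239 CPM in MNEB3, and the next highest MNEB cow had 117. Without MNEB3 its log2 fold change was 0.92 in place of 0.60 (edgeR adjusted p = 0.286, in a range of 0.286 to 0.875 over the cows left out). The estimate for PPARGC1A was 0.19 with the lanes of flow cell B, 0.88 with those of C and 0.37 without the cows of flow cell A. It passed in none of these fits. MNEB3 was also the MNEB cow with the lowest CYP11A1 and the highest UGT2A3 level. AHR had 106 CPM in SNEB3, and the next highest SNEB cow had 75.6. Without SNEB3 its log2 fold change was -1.04 (edgeR adjusted p = 0.00996, in a range of 0.00996 to 0.169 over the cows left out). SNEB3 was also the SNEB cow with the highest CYP11A1 and the lowest UGT2A3 level. Both cows were run on a single lane of flow cell B, on which AHR (log2 ratio of B to C 0.28, edgeR adjusted p = 0.000206) and PPARGC1A (0.36, edgeR adjusted p = 1.64e-09) were higher than on C, as were 29.5% of the genes tested. In size these ratios exceeded those of 48.9% and 60.8% of the genes. The part of the lane in these values was not tested.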

How the results depend on the processing

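CYP11A1 was called under all 12 alternatives (log2 fold change 0.92 to 1.54, edgeR or DESeq2 adjusted p up to 0.0795) and with each of 11 cows left out (1.23 to 1.46, up to 0.0294). UGT2A3 lay between -1.26 and -0.85 with a cow left out and passed in none of these fits; it passed with DESeq2 only (-1.06). SULT1E1 lay between -1.51 and -0.37 with a cow left out and was -0.21 without the cows of flow cell A and 0.0688 with the lanes of flow cell C. Of all genes, 76 were called, against 274 with DESeq2, 34 without the cows of flow cell A, 27 with the lanes of B, 21 with those of C, and 40 to 125 with a cow left out (125 without MNEB1, 50 without MNEB3, 40 without MNEB5, 120 without SNEB3). Fits of lanes of B or C, added after the data were examined, hold 7 cows; the cause of the other shifts was not tested. Of the 6 called genes of the lists, 3 were called without the cows of flow cell A and 2 to 6 with a cow left out (2 without MNEB5). The log2 difference of the CYP11A1 to UGT2A3 ratio was 2.13 to 2.82 with a cow left out and 1.36 with the lanes of C. That of CYP11A1 to SULT1E1, 1.76 with 0.5 read added to the 0 of MNEB5, was 1.10 to 2.99 with a cow left out, 0.99 without the cows of flow cell A and 0.26 with the lanes of C. That of UGT2A3 to SULT1E1, -0.75, was -1.33 to 0.40 with a cow left out, its sign changing without MNEB5, and -1.43 to -0.42 under the other alternatives. The log2 ratio of flow cell B to C was 0.0587 with RLE, 0.0706 without TMM and 0.0577 to 0.0961 with a cow left out for CYP11A1, 0.52 to 0.63 for UGT2A3, and 0.83 to 1.03 for SULT1E1.

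Before allocation, cows had been blocked by parity, body condition score and previous milk yield, and the sample labels do not name the blocks. Whether replicate numbers pair the cows could not be settled. Deviations of same-numbered cows had correlations from -0.08 to 0.39, 2 of 5 over 0.1. Of 5 MNEB cows, 1 was most like the SNEB cow of its number. Same-numbered cows had been run on the same set of flow cells in 5 of 5 pairs. A shared block and shared flow cells thus cannot be told apart. With the replicate number as a block, 83 genes were called, and the log2 fold change was 1.45 for CYP11A1, -1.04 for UGT2A3 and -1.03 for SULT1E1, with edgeR adjusted p-values of 0.0737, 0.353 and 0.801.

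SULT1E1 had only 0 to 59 reads per cow. The 3 reads that a count of 0 allows correspond to 0.438 to 1.69 CPM over the cows. Flow cell A held 1 cow per group, so no test was possible within it. Flow cell and run cannot be told apart. Ratios of reads carry no correction for gene length.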
